A study of Rattus norvegicus with 4 samples.

Results

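The cornified envelope and barrier genes described here are 10 genes of the outermost layers of stratified squamous epithelium, SBSN, DMKN, KRTDAP, SPRR1A, CNFN, CSTA, SERPINB12, TGM1, ALOX12B and ALOXE3. They were chosen by gene symbol from the 27832 features of the expression table, and where a symbol had several rows the row with the highest mean over the 4 libraries was taken. The symbols were chosen by measured values, since earlier results of the same data, a high level in the PA library, were known, so their levels are a description and no test was made on them. RNA came from middle ear mucosa of Sprague-Dawley (SD) rats, an outbred stock, 1 week after inoculation with media only, with MRSA (methicillin-resistant Staphylococcus aureus), with PA (Pseudomonas aeruginosa) or with a mixed culture of MRSA + PA, given into the right middle ear across its eardrum. Each condition is represented by 1 library, so no value has a replicate and a difference between conditions cannot be told apart from a difference between rats or between scrapings. The number of rats behind a library and their age are not given in the sources used here. Values are in FPKM, fragments scaled by transcript length and by the mapped fragments of the library, which allows levels of different genes to be compared per length, and the number of reads behind a value is unknown.

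Cornification is the last step in the life of a keratinocyte. The cell builds a protein envelope under its membrane, transglutaminases weld precursor proteins into that envelope, lipoxygenases prepare the lipids that are bound to its outside, and the dead cell becomes part of a barrier to water and microbes. The normal lining of the middle ear is a thin mucosa with ciliated and secretory cells, whereas keratinised squamous epithelium covers the ear canal and the outer face of the tympanic membrane. Genes of cornification are therefore known mainly from skin.

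All 10 genes had their highest level in the PA library, as did 25.3% of all features. Their levels there ran from 1.01 FPKM (ALOX12B) to 172 FPKM (SBSN), while the highest level of any of them in another library was 1.61 FPKM (TGM1 in MRSA + PA). Of the 30 values in the media, MRSA and MRSA + PA libraries, 14 were listed at 0. Of all 27832 features, between 21504 and 21868 lay above 0 in each of these libraries. Summed over the 10 genes, the level was 603 FPKM in PA, 1.66 in media, 3.08 in MRSA and 2.84 in MRSA + PA. The MRSA + PA library, whose inoculum also held PA, thus stood with media and MRSA and not with PA.

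**Figure D1:**
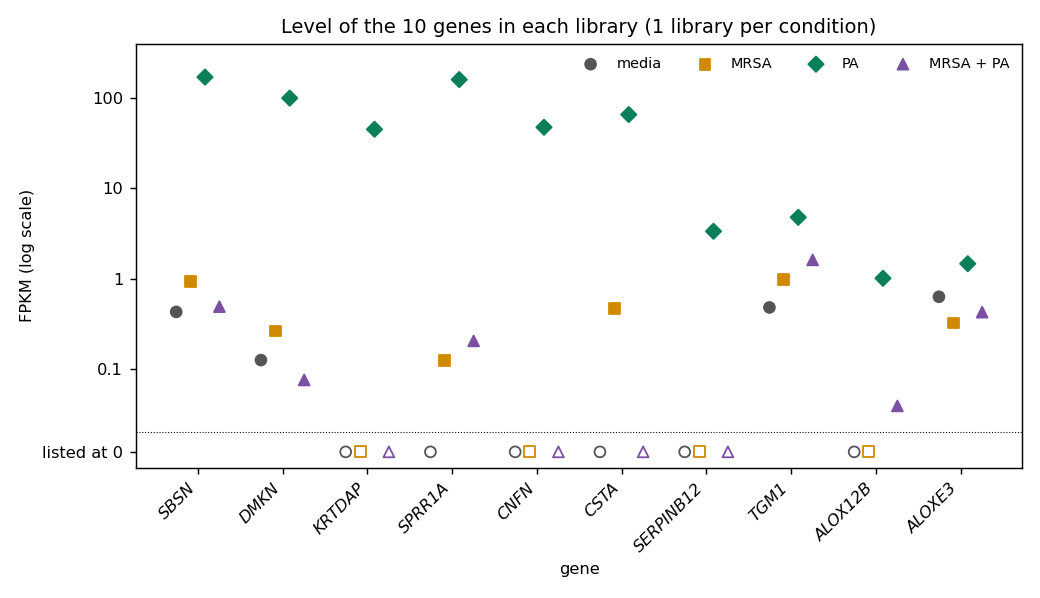
Level of each of the 10 genes in FPKM (log axis) in the 4 libraries, 1 point per library, with open symbols under the dotted line for values listed at 0. The PA points lie between 1.01 and 172 FPKM and above the other 3 points for every gene, and no point outside PA exceeds 1.61 FPKM.

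The libraries differed in other markers as well. Markers of the normal mucosa were present throughout, with EPCAM, an adhesion protein of epithelia, at 222 to 266 FPKM and FOXJ1, the regulator of motile cilia, at 16.6 to 34.0 FPKM. A list of 6 skeletal muscle markers summed to 8.64 FPKM in PA, 4701 in media, 1779 in MRSA and 4.13 in MRSA + PA. The FPKM of features of at least 300 bp summed to between 692953 (PA) and 779182 (media), and between 21504 and 21898 features per library lay above 0.

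Among the secreted proteins of differentiating keratinocytes, SBSN, DMKN and KRTDAP were at or below 0.922 FPKM outside PA and between 45.3 and 172 FPKM in PA. SBSN (suprabasin, a protein of suprabasal keratinocytes) had 172 FPKM in PA, 0.428 in media, 0.922 in MRSA and 0.489 in MRSA + PA. Its level in PA was thus 402 times that in media, 186 times that in MRSA and 351 times that in MRSA + PA, and 97.8% of all features were lower in PA. DMKN (dermokine, secreted by the same layers) had 100.4 FPKM in PA, 0.125 in media, 0.263 in MRSA and 0.0752 in MRSA + PA, so that the PA level was 803 times that in media and 382 times that in MRSA in this row. MRSA + PA was the lowest of the 4 libraries for this DMKN row and media the lowest for SBSN. KRTDAP, a small secreted protein tied to keratinocyte differentiation, had 45.3 FPKM in PA and was listed at 0 in media, MRSA and MRSA + PA, so no fold is given. PA was the only library of the 4 with a value above 0 for KRTDAP.

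These genes lie side by side. In the deposited coordinates, whose genome build is not named in the sources used here, SBSN is at 90357212 to 90361688 on chromosome 1, DMKN at 90369321 to 90386075 and KRTDAP at 90393145 to 90394075, all on the + strand. TMEM147, a membrane protein gene 2 features before SBSN, had 35.0 FPKM in PA, 46.8 in media, 39.4 in MRSA and 39.3 in MRSA + PA. GAPDHS, the sperm form of a glycolytic enzyme and the feature next to SBSN, stayed at or under 0.0324 FPKM in every library. An unnamed feature between DMKN and KRTDAP had 1.09 FPKM in PA and was listed at 0 elsewhere. On the far side of KRTDAP, RPL36 (a row named for a ribosomal protein) was listed at 0 in all 4 libraries. FFAR2, a receptor for short-chain fatty acids beyond it, had 4.08 FPKM in PA, 0.570 in media, 3.22 in MRSA and 3.002 in MRSA + PA. Levels above 10 FPKM that were confined to PA thus belonged to the 3 members among these features, while FFAR2 was higher than in media in all 3 inoculated libraries. A second row named DMKN, 1.92 Mb further along the chromosome (92287317 to 92290742), had 75.7 FPKM in PA, 1.68 in media, 0 in MRSA and 2.15 in MRSA + PA. Its PA value was again the highest, and reads may have been divided between the 2 rows, which makes the single DMKN levels uncertain. With both rows summed, DMKN had 176 FPKM in PA, 97.4 times the level in media and 671 times that in MRSA, and MRSA was the lowest library.

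Promoter sequences of 9 of the 10 genes are held in a RefSeq table of the rat build GRCr8 (250 bases before to 50 after each annotated start), SBSN with 2 starts. They were searched on both strands for 4 motifs. TGANTCA, the site of AP-1 factors (a palindrome apart from its centre), was found for 4 of the 9 genes, SBSN, DMKN, KRTDAP and SPRR1A, and in 7.33% of all 33469 promoters. CCACCC, a box bound by KLF factors, was found for 4 of the 9 (SBSN, KRTDAP, TGM1 and ALOXE3) and in 29.4% of all promoters. TATAAA was found for KRTDAP and SPRR1A and in 14.2% of all promoters, and AACNGGTT, the grainyhead-like site, for 0 of the 9 and for 703 of all 33469 promoters. A match is a stretch of letters and not a measured binding site. The stretches with AP-1 letters are shown for these 4 genes, since 3 of them are the chromosome 1 neighbours and SPRR1A had the largest difference between PA and media on the log2 scale. Each reads 5′ to 3′ on the gene's strand and ends before the annotated start, and capitals mark the AP-1 letters. They lie at chr1:95128779-95128956 (+ strand, the downstream of the 2 SBSN starts), chr1:95141471-95141542 (+ strand), chr1:95165761-95165832 (+ strand) and chr2:180752691-180752792 (- strand) of GRCr8. The SPRR1A row whose levels are given here is on the + strand in the deposited coordinates, whereas RefSeq places SPRR1A on the - strand. Whether both are the same SPRR copy is not settled.
SBSN: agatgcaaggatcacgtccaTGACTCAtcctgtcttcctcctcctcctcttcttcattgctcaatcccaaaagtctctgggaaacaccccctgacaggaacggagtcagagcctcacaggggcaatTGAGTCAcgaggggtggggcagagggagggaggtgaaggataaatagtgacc
DMKN: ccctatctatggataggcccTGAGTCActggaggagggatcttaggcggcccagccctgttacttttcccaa
KRTDAP: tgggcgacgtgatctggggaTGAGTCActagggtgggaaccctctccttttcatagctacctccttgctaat
SPRR1A: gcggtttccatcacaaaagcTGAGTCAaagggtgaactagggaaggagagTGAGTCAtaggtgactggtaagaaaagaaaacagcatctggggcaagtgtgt
SBSN and SPRR1A each hold 2 such matches in these windows, and DMKN and KRTDAP hold 1 each. The match nearest the start begins 76 bases before it in SBSN, 81 in KRTDAP, 117 in SPRR1A and 129 in DMKN.

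The envelope proteins and protease inhibitors were also highest in PA, while the order of the other libraries differed between genes. SPRR1A, a small proline-rich precursor that is cross-linked into the envelope, lies at 212199154 to 212200861 on chromosome 2 (+ strand). It had 161 FPKM in PA, 0.125 in MRSA and 0.204 in MRSA + PA and was listed at 0 in media. The PA level of SPRR1A was 1293 times that in MRSA and 789.9 times that in MRSA + PA. CNFN (cornifelin, another envelope component) lies at 83497889 to 83500036 on chromosome 1 (- strand), had 47.7 FPKM in PA and was listed at 0 in the other 3 libraries.

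CSTA (cystatin A, an inhibitor of cysteine proteases and an envelope protein) was taken from the row at 70398922 to 70403785 on chromosome 11 (+ strand). It was listed at 0 in media and MRSA + PA and had 0.470 FPKM in MRSA and 66.0 in PA. A second CSTA row, 0.244 Mb away on chromosome 11, had 25.4 FPKM in PA and was listed at 0 in the other 3 libraries, and the remaining CSTA row was listed at 0 in all 4. The second row spans 11189 bp, close to the 11006 bp of the RefSeq gene Csta, while the row taken here spans 4864 bp. Rats carry several near-identical stefin genes beside Csta, so the division of reads among them is uncertain, and both rows with a value had it highest in PA. STFA2, the stefin feature next to the row taken, had 56.1 FPKM in PA, 18.5 in media, 24.6 in MRSA and 29.6 in MRSA + PA, a log2 difference of 1.60 between PA and media. SERPINB12, an intracellular inhibitor of serine proteases at 32119950 to 32147132 on chromosome 13 (+ strand), had 3.35 FPKM in PA and was listed at 0 in the other 3 libraries, and a second row of that name was listed at 0 in all 4.

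The enzymes of the envelope had lower levels and smaller differences than the envelope proteins SPRR1A, CNFN and CSTA. TGM1 (transglutaminase 1, which cross-links envelope precursors in keratinocytes) lies at 38268114 to 38281590 on chromosome 15 (- strand). It had 4.79 FPKM in PA, 0.479 in media, 0.979 in MRSA and 1.61 in MRSA + PA. Its PA level was 9.99 times that in media and 2.97 times that in MRSA + PA, so TGM1 differed least between PA and MRSA + PA among the genes with a fold. The MRSA + PA level of TGM1 was 3.37 times that in media. ALOX12B and ALOXE3, lipoxygenases that act in sequence on the lipids bound to the envelope, are neighbours on chromosome 10 (55487702 to 55499580 and 55455106 to 55478970, both on the + strand). ALOX12B was listed at 0 in media and MRSA and had 1.01 FPKM in PA and 0.0388 in MRSA + PA. ALOXE3 had 1.46 FPKM in PA, 0.629 in media, 0.323 in MRSA and 0.425 in MRSA + PA. The PA level of ALOXE3 was 2.33 times that in media, the smallest such ratio among the 4 genes above 0 in media. ALOX15B, the next lipoxygenase gene on the chromosome, was highest in MRSA, at 1.02 FPKM, with 0.819 in PA, 0.658 in media and 0.588 in MRSA + PA.

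For a comparison on 1 scale, 0.1 FPKM was added to each value before the log2 ratio of 2 libraries was taken, and features averaging 1 FPKM or more across the libraries were counted at a difference of at least 2-fold. Of the 10 genes 7 passed that mean, 6 of them only through their PA value, so the counts carry no weight as support. SERPINB12, ALOX12B and ALOXE3 did not pass. All 7 were at least 2-fold higher in PA than in media, against 10% of all 15944 features, and 0 were lower (background 7.80%). The median log2 difference of the 7 was 8.83, beside 0.07 over all features, and for a gene listed at 0 in media this value depends on the 0.1 FPKM added. Without the filter, 10 of 10 were higher, against 10.5% of all features. Against MRSA, all 7 were higher in PA (background 3.54%) with a median log2 difference of 8.12, and in MRSA + PA all 7 were lower than in PA (background 4.27%) with a median of -8.90. The comparisons that include PA share 1 library, so they are not independent of each other.

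**Figure D2:**
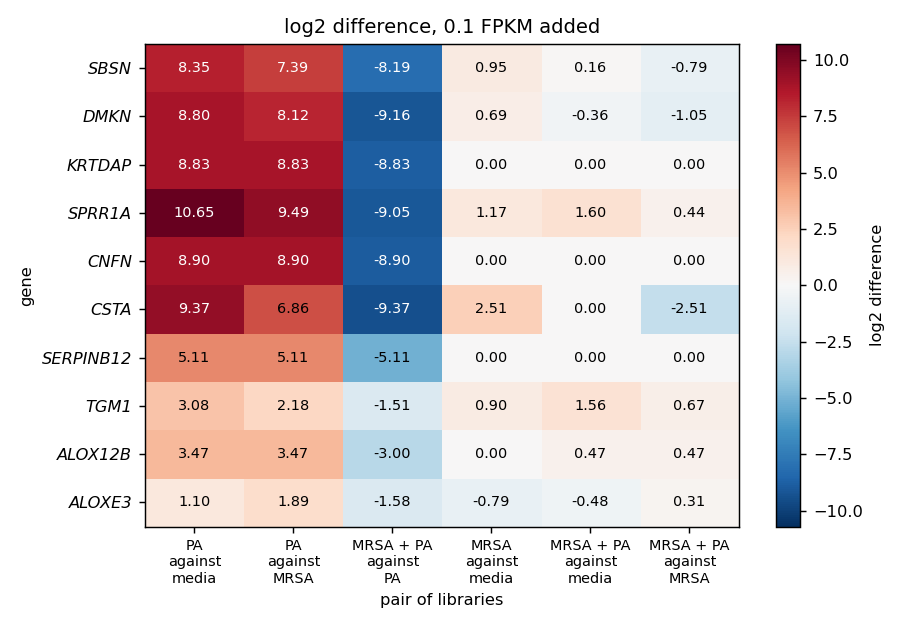
log2 difference of each gene for the 6 pairs of libraries (0.1 FPKM added, first library over second; red higher, blue lower). The columns that include PA hold differences of 1.10 or more in size for every gene, and among the other pairs only CSTA with MRSA reaches 2.51 or -2.51.

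Between the libraries without the high levels the differences were small and went both ways. In MRSA 2 of the 7 genes were at least 2-fold higher than in media (background 8.47%), SPRR1A with a log2 difference of 1.17 and CSTA with 2.51, both listed at 0 in media. In MRSA + PA 2 of the 7 were higher than in media (background 7.78%), SPRR1A with 1.60 and TGM1 with 1.56. Against MRSA, 2 of the 7 were at least 2-fold lower in MRSA + PA (background 5.73%), DMKN with -1.05 and CSTA with -2.51, and 0 were higher (background 1.61%). All of these rest on levels under 2 FPKM. With 1 FPKM added in place of 0.1 the counts against media fell to 0 in MRSA and 0 in MRSA + PA. For DMKN the sign between MRSA + PA and MRSA turned, from -1.05 to 2.68, when both DMKN rows were summed.

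PA stood above the highest of the other 3 libraries by at least 10-fold, with 0.1 FPKM added, for 7 of the 10 genes without the filter, against 0.499% of all features. By its levels alone ALOX12B, at 26.0 times the MRSA + PA level, would also pass. For the other libraries the same share over all features was 0.115% in media, 0.0826% in MRSA and 0.0395% in MRSA + PA, with 0 of the 10 genes in each. KRTDAP, CNFN and SERPINB12 belonged to the 57 features (0.205% of all) with at least 1 FPKM in PA that were listed at 0 elsewhere. The corresponding shares of features were 0.0683% for media, 0.0359% for MRSA and 0.0216% for MRSA + PA.

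Many other genes of cornification also had their highest level in PA. Of 66 further symbols 49 were found in the table and 33 passed the mean of 1 FPKM. Of these 33, 21 were at least 2-fold higher in PA than in media (10% of all features) and 0 lower (7.80% of all), with a median log2 difference of 1.34. Of the 33, 10 passed that mean only through their PA value and so had to be higher there, while among the other 23, 11 were higher and 0 lower. In MRSA 1 of the 33 was higher (background 8.47%) and 0 lower (background 4.95%), with a median of 0.02. In MRSA + PA 3 were higher (background 7.78%) and 2 lower (background 7.83%), with a median of 0.13. Over all 49 without the filter, 40 had their highest level in PA, against 25.3% of all features.

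Envelope precursors did not all differ alike. CDSN (corneodesmosin, which holds cornified cells together) had 32.6 FPKM in PA, 1.57 in media, 2.21 in MRSA and 2.14 in MRSA + PA. PPL (periplakin) and EVPL (envoplakin), scaffold proteins that other epithelia make too, had log2 differences between PA and media of 0.69 and 0.79 and did not reach 2-fold. FLG, FLG2 and RPTN, named after their values were seen, were at least 2-fold higher in PA than in media as well, but passed the mean of 1 FPKM only through PA. Of the 3 precursors that passed without it, CDSN was the 1 past 2-fold. FLG (filaggrin, which bundles keratin) had 8.84 FPKM in PA, 0.0263 in media, 0.0232 in MRSA and 0.0237 in MRSA + PA. IVL (involucrin, an early precursor) reached 0.644 FPKM in PA, and SPRR3 and CRNN, precursors of mucosal squamous epithelium, were listed at 0 in all 4 libraries.

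The lipid genes also differed among themselves. SMPD1, a lysosomal lipid hydrolase of most cells, had a log2 difference between PA and media of -0.26, and ABHD5, a cofactor of lipid breakdown, 0.02. By contrast 4 of the 8 genes of this role that passed were at least 2-fold higher in PA than in media (10% of all features). Of the 4, 2 (SDR9C7 and NIPAL4) passed only through PA. Among the 4, named after their values were seen, ELOVL4, which makes very long fatty acids, had 16.9 FPKM in PA, 1.48 in media, 0.785 in MRSA and 1.05 in MRSA + PA. SDR9C7, a dehydrogenase that acts after the lipoxygenases, had 7.15 FPKM in PA and at most 0.242 elsewhere. The cross-linking enzymes TGM3 and TGM5 had 0.999 and 2.00 FPKM in PA and at most 0.382 and 0.338 FPKM elsewhere.

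Of the proteases, inhibitors and filaggrin-processing genes 6 of 10 were at least 2-fold higher in PA than in media (10% of all features) and 0 lower (7.80% of all). Of the 6 that were higher, 4 (ASPRV1, CASP14, KLK5 and KLK7) passed only through PA. Among the 6 genes that passed without PA, 2 were higher. CSTB (cystatin B, the widely made relative of CSTA) had 440.3 FPKM in PA, 280.1 in media, 515 in MRSA and 566 in MRSA + PA, so it was highest in MRSA + PA, unlike CSTA. ST14 (matriptase, a membrane protease) had 48.0 FPKM in PA, 22.8 in media, 40.2 in MRSA and 37.0 in MRSA + PA, and BLMH (bleomycin hydrolase, which degrades filaggrin) a log2 difference between PA and media of 0.37. ASPRV1, the protease that cleaves profilaggrin and named after its values were seen, had 81.3 FPKM in PA, 0.136 in media, 0.362 in MRSA and 0 in MRSA + PA. The transcription factors of keratinocyte differentiation had a median log2 difference between PA and media of 1.34, beside 0.07 over all features. It was 1.06 for the proteases and inhibitors, 1.38 for the lipid genes and 4.88 for the envelope precursors. Each of these medians includes genes that passed the mean only through PA, so the roles cannot be ranked by them. TP63, the master factor of squamous epithelium, had 28.8 FPKM in PA, 14.3 in media, 14.1 in MRSA and 16.5 in MRSA + PA. KLF4 went the other way, with 63.2 FPKM in media and 40.3 in PA, and PRDM1 had a log2 difference between PA and media of 1.32. Of the 9 factors, 7 were at least 2-fold higher in PA than in media (10% of all features), with GRHL3 passing only through PA. TP63 lay at the cut, with a log2 difference of 1.00. The count of 7 fell to 2 when differences were taken relative to the broad epithelium list.

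Markers of suprabasal epidermis moved with the 10 genes. The 5 of 7 markers found in the table summed to 973 FPKM in PA, 4.97 in media, 4.27 in MRSA and 3.13 in MRSA + PA. KRT1, a keratin of suprabasal epidermis, had 465 FPKM in PA, 0.224 in media, 0.917 in MRSA and 0.0308 in MRSA + PA. DSC1 (desmocollin 1) was listed at 0 in all libraries but PA, where it had 16.9 FPKM, and KRT2, a late keratin of the epidermis, had 1.71 FPKM in media and 0.909 in PA. Basal keratinocyte markers, which airway basal cells share, summed to 1334 FPKM in PA, 445 in media, 424 in MRSA and 686 in MRSA + PA, with KRT14 at 483 FPKM in PA and 136 in media. The basal markers thus differed by far less than the suprabasal ones. The 10 broad epithelium markers summed to 917 FPKM in PA and to 676 to 732 FPKM elsewhere, and 3 of the 10 were at least 2-fold higher in PA than in media, beside 10% of all features. Relative to the median of that list, the median log2 difference of the 7 genes between PA and media was 8.18. In bulk RNA, more cells of a type and more RNA of a gene per cell cannot be told apart, and the part of cell content in the PA levels was not tested.

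Markers of other cell types of skin did not share 1 pattern. Hair follicle markers (7 of 8 found) summed to 3.14 FPKM in PA, 0.160 in media, 0.0668 in MRSA and 0.176 in MRSA + PA. In PA 5 of the 7 were listed at 0, KRT25, KRT27, KRT72, KRT35 and KRT85, beside 5 in media, 6 in MRSA and 5 in MRSA + PA. KRT75, a keratin of the follicle's companion layer, made up 3.07 FPKM of that sum in PA and had 0.127 in media. Melanocyte markers summed to 1.64 FPKM in PA and 2.79 to 4.50 elsewhere. TYR (tyrosinase) and TYRP1 were listed at 0 in PA and in MRSA + PA, TYR also in MRSA, and both were near 0 in media. The rest of that list was above 0 in every library. MLANA had 0.497 FPKM in PA, 1.53 in media, 1.83 in MRSA and 3.44 in MRSA + PA. PMEL had 0.835 FPKM in PA and 0.778 in media, and DCT 0.310 and 0.538. The 6 sebaceous markers summed to 13.5 FPKM in PA, 22.8 in MRSA and 7.35 in media, most of it FAR2, which other tissues use too, while AWAT1 and AWAT2 (wax synthases) had 0.107 and 0.840 FPKM in PA, and 0.0401 and 0.178 in media. Among mucosal squamous markers KRT4 was highest in media (5.80 FPKM, against 0.753 in PA), while its partner KRT13 was highest in PA (1.81 FPKM, against 0.166 in media). KRT17, a keratin of stressed and appendage epithelium, had 95.2 FPKM in PA, 8.45 in media, 25.1 in MRSA and 65.3 in MRSA + PA, and KRT6A (1 of 5 rows of that name) had 489 FPKM in PA, 7.77 in MRSA, 8.0003 in MRSA + PA and 0 in media. That KRT6A row is on chromosome 1, whereas the rows of KRT1, KRT4 and KRT5 are on chromosome 7, and which gene it measures is not settled. BPIFA1, an airway defence protein, stood at 7472 FPKM in PA and 25725 in media. Other secretory markers of that list, named after their values were seen, were highest in PA, SCGB1A1 (club cell secretory protein) with 1537 FPKM against 248 in media and MUC5B (a gel-forming mucin) with 86.1 against 8.82. The 5 ciliated cell markers had log2 differences between PA and media of -0.68 to -0.07, and leukocyte markers summed to 467 FPKM in media and between 736 and 774 in the inoculated libraries.

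**Figure D3:**
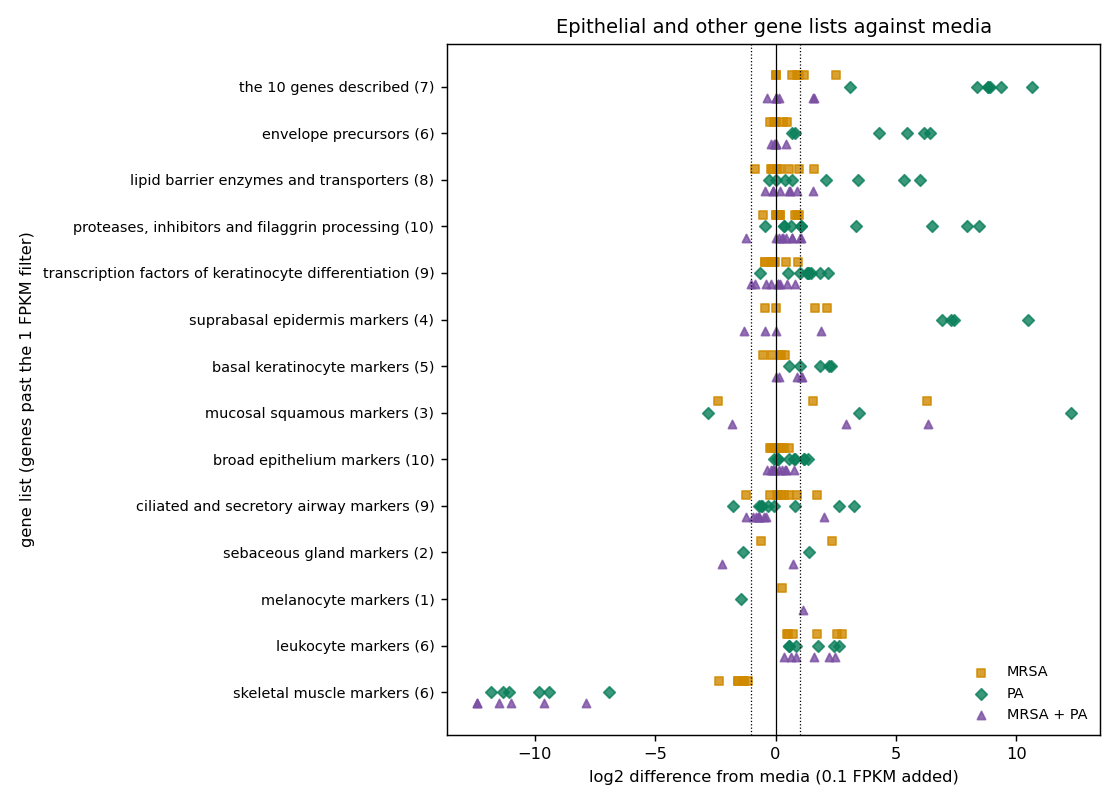
log2 difference from media (0.1 FPKM added) of genes averaging 1 FPKM or more, 1 row per gene list with the number of genes in brackets and 1 point per gene and inoculum, and dotted lines at 1 and -1. The PA points of the 7 members that pass, the suprabasal markers and part of the envelope precursors lie far to the right, while MRSA and MRSA + PA points of these lists lie at most 2.51 from 0.

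SPRR1A lies on chromosome 2 among other genes of the epidermal differentiation complex, a cluster that encodes many envelope precursors. The stretch of 1.37 Mb from TCHH to the last SPRR feature, chosen after the values were seen, held 39 features, 23 of them without a gene name. Of the 39, 34 were at least 2-fold higher in PA than in media, against 10.5% of all features without the filter, 4 in MRSA (background 8.30%) and 2 in MRSA + PA (background 7.38%). At least 1 FPKM was reached by 30 of the 39 in PA, 1 in MRSA and 0 in media and in MRSA + PA. The exact share of all features at that level was not counted. In PA, 43.6% of all features were lower than ALOX12B at 1.01 FPKM. In MRSA, 43.3% were lower than TGM1 at 0.979 FPKM. Reaching 1 FPKM is thus common over all features. The 1 in MRSA was an unnamed feature at 212386796 to 212387041, shorter than 300 bp, with 4.12 FPKM. The longer row of SPRR2J had 139 FPKM in PA and 0.144 in MRSA, and was listed at 0 in media and MRSA + PA. TCHH (trichohyalin, a hair follicle protein) at the edge of the stretch was lowest in PA, with 0.238 FPKM in PA, 0.342 in media, 0.529 in MRSA and 0.363 in MRSA + PA. SPRR genes are near-identical copies, so the division of reads among them is uncertain.

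**Figure D4:**
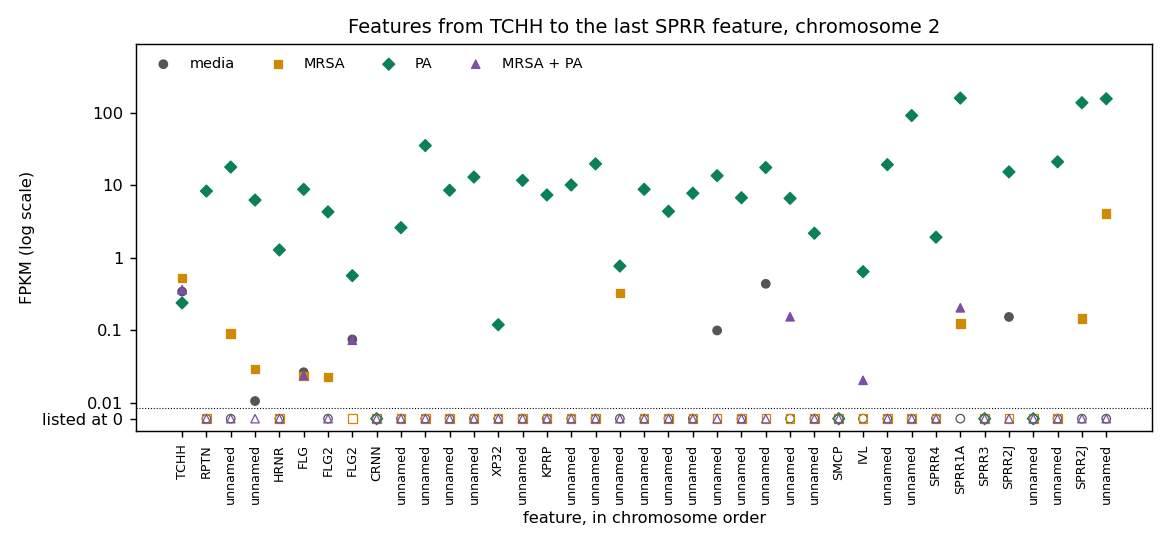
Level in FPKM (log axis) of the 39 features from TCHH to the last SPRR feature on chromosome 2, in chromosome order, 1 symbol per library, open symbols under the dotted line for values listed at 0. PA is the highest library for 34 features, 4 features are listed at 0 in all libraries, and TCHH is lowest in PA.

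Around the other genes neighbours varied. SERPINB12 on chromosome 13 is followed by SERPINB13, with 2.71 FPKM in PA and 0 elsewhere, and by SERPINB4, with 24.1 FPKM in PA, 1.96 in media, 2.18 in MRSA and 1.65 in MRSA + PA, both of the same inhibitor family. SERPINB11, 4 places after SERPINB12, went the other way, with 19.9 FPKM in media and 8.997 in PA. TGM1 on chromosome 15 lies between TINF2 (a telomere protein), with a log2 difference between PA and media of -0.34, and RABGGTA (an enzyme that lipidates Rab proteins), with 0.12, and LTB4R2 (a leukotriene receptor), 5 places away, had 0.754 FPKM in PA and 0.215 in media. Near CNFN, LIPE (hormone-sensitive lipase) had 1 row at 4.81 FPKM in PA and 9.10 in media, and a shorter row on the other strand at 0.631 and 0.204. Within 5 places of any of the 10 genes lay 71 distinct features, leaving out the row taken for each gene. Of the 71, 20 (28.2%) were at least 2-fold higher in PA than in media (background 10.5%) and 3 lower (background 9.48%). The 71 include the features around SPRR1A, part of the chromosome 2 stretch described above. They also include the CSTA row that was listed at 0 in every library. The window of 5 places was chosen after the values were seen, and with 3 places the share was 30.2% of 43 features.

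The features most like the 10 genes in profile were 3 kallikreins, 2 keratin rows, a carboxylesterase, a zinc finger protein and a desmosomal cadherin. Likeness was the Euclidean distance between log2(FPKM + 0.1) values over the 4 libraries, each centred on its own mean, from the average profile of the 7 genes that passed, among 10849 named rows averaging 5 FPKM or more. The nearest was KLK5, a protease that sheds cornified cells, at a distance of 0.64, with 24.7 FPKM in PA and 0 in the other libraries. KLK13 followed at 0.66, with 28.3 FPKM in PA and at most 0.0943 elsewhere, and KLK6 stood eighth of the 8 nearest, at 1.27. CES2E (a carboxylesterase, 1 of 2 rows) lay at 0.80 and ZFP60 (a zinc finger protein, 1 of 6 rows) at 0.87. KRT10, the partner keratin of KRT1, lay at 0.97, with 456 FPKM in PA and at most 2.85 elsewhere. Another row named KRT6A, also on chromosome 1 and of the same unsettled identity, lay at 1.11. DSG1A (desmoglein 1, a cadherin of suprabasal desmosomes) lay at 1.15, with 34.7 FPKM in PA and at most 0.358 elsewhere. Among the members, SBSN lay nearest to the average at 0.27 and ALOXE3 farthest at 5.60, with TGM1 at 4.93. The distance rests on 4 libraries, 1 per condition, and shows that these features share a high PA value.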

How the data were processed

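RNA-sequencing was performed by the authors on poly(A) RNA of rat middle ear mucosa, 1 library per condition and 4 in all. The sample titles gave the conditions. The authors' deposited expression table gives FPKM, made by the authors from quality-filtered reads mapped with STAR 2.3.0e and quantified with Cufflinks 2.1.1 with correction for multi-mapped reads and fragment bias, as named in the submitters' processing notes and the paper's methods. The methods name the human reference, whereas the table has chromosomes 1 to 20 and X as in the rat, and the table names no build. FPKM gives no read counts, so the counting precision of a value is unknown. The paper's text gives raw reads as a range over all samples and not the depth of each library. The 3 deposited comparison tables hold the authors' log2 ratios, p-values and q-values and were not used, nor were 12 columns there that repeat or rescale library values.

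The members and gene lists were chosen with earlier results of these data known. The named genes were the 10 members, in each role of the cornification list the 3 with the highest mean, in each marker list the highest and defining markers at 0, and the 8 nearest profiles. Other genes are named after their values were seen. Some genes that this rule or a neighbouring position would name are not reported here. Log2 ratios were taken with 0.1 FPKM added, for features averaging 1 FPKM or more, in 6 pairs of libraries. With 1 library per condition no test was made. The arithmetic was tested on simulated data. Alternatives were 1 or 0.01 FPKM added, 2 other scalings, differences relative to 10 broad epithelium markers, other filters, a 4-fold threshold and sums over all rows of a symbol. Promoters came from RefSeq (GRCr8). Values were computed in pandas 2.3.3 and numpy 2.4.6 (Python 3.11.15) and plotted with matplotlib 3.10.9.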

Additional observations from a re-analysis of the deposited data

How the results depend on the processing

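PA was the higher library in all 180 recomputed differences between PA and another library (10 genes, 3 pairs, the 6 alternatives that can change a single difference). Adding 1 or 0.01 FPKM changes the size but cannot change which library is higher, and summing rows changes only DMKN and CSTA. The genes were also chosen with their high PA level known, so this count carries no weight as support. Median-of-ratios scaling and equal FPKM sums over features of at least 300 bp moved no count, median or level by more than 1.5 times. Sizes depended on the FPKM added, because many values were listed at 0. With 1 FPKM added, the median log2 difference of the members was 6.07 for PA against media, 5.61 for PA against MRSA, -6.07 for MRSA + PA against PA and 0.17 for MRSA against media. With 0.01 FPKM added, it was 12.15 for PA against media and -10.20 for MRSA + PA against PA. Relative to the broad epithelium list it was 8.18 for PA against media, and without a filter it was 7.13 for PA against MRSA. With all rows of a symbol summed it was 8.83 for PA against MRSA, and DMKN in PA was 176 FPKM, with a log2 difference from media of 6.53 in place of 8.80.

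Counts between the other libraries were unstable. The members at least 2-fold higher in MRSA than in media numbered 2 as reported, 0 with 1 FPKM added, 5 with 0.01 FPKM and 1 at 4-fold. In MRSA + PA against media they numbered 2 as reported, 0 with 1 FPKM added, 1 with a minimum mean of 5 FPKM and 0 at 4-fold. The members lower in MRSA + PA than in MRSA numbered 2 as reported, 0 with 1 FPKM added, 1 at 4-fold and 1 with rows summed. With rows summed, 1 member was lower in MRSA than in media and 1 higher in MRSA + PA than in MRSA, in place of 0, and the log2 difference of DMKN between MRSA + PA and MRSA turned from -1.05 to 2.68 because its second row was listed at 0 in MRSA.

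Among other cornification genes at least 2-fold higher in PA than in media, transcription factors fell from 7 to 4 with 1 FPKM added, 2 relative to epithelium, 1 with a minimum mean of 5 FPKM and 1 at 4-fold. Envelope precursors went from 4 to 7 without a filter and 1 with a minimum mean of 5 FPKM, lipid genes from 4 to 1 with that mean, and cross-linking enzymes from 0 to 2 without a filter. The library values of the comparison tables were not run as an alternative, since their column names give no sample. No paired analysis was possible because each group has 1 sample. FPKM without read counts limits every statement on values near 0.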
